A study of Mus musculus with 9 samples.

Results

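The mitochondrial calcium uniporter is a channel of the inner mitochondrial membrane, and 8 genes of this channel and of its calcium exchangers were followed in 9 RNA-seq libraries of a mouse pancreatic cancer line. The genes were Mcu, Mcub, Micu2, Micu3, Smdt1, Mcur1, Letm1 and Slc8b1, 8 of the 54838 gene identifiers in the count table. They were chosen by name as 1 pathway, because Micu2 lies next to the edited gene Zdhhc20 and is lower together with it. The fall of Micu2 in the knockout clone therefore chose the group, so its values in that clone are given as a description without a test. All 8 genes passed the filter on low counts. Mcub, the lowest of them, passed it through its parental libraries (20, 10 and 21 counts). Its knockout libraries, at 20, 13 and 8 counts, met the filter only in part. Its control libraries, at 11, 4 and 7 counts, did not meet it.

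The cells were PDA530 Met, a ductal adenocarcinoma line established from liver-metastatic tumour tissue of a male KPC animal (KPC is a genetic model of pancreatic cancer), on a mixed 129/SvJae/C57Bl/6 background, grown in DMEM with serum and without treatment. In 1 place the submitters' text names the parental cells PDA50 Met, which was read here as the same line. The knockout group was clone E4, a single-cell clone edited in Zdhhc20 with CRISPR/Cas9. The control group was clone C5, a single-cell clone that received the same guide RNAs by nucleofection, was not edited and still expresses Zdhhc20. The uncloned line, called parental, was the last group. Each group held 3 libraries, described as biological replicates, but each edited or unedited state rests on 1 clone, so a difference between clones and an effect of the edit cannot be told apart.

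Library totals ranged from 16525869 to 23192701 counts. Of the 7 epithelial and ductal markers, 6 were above 1 CPM on average in each group, with a summed level of 4330 to 4510 CPM in the knockout libraries and 6750 to 9200 CPM in the others. The fibroblast, leukocyte, endothelial and acinar markers, each class summed on its own, were at most 4.03 CPM per class in any library, and Col1a2, Dcn, Cd3e, Cpa1 and Ptf1a held 0 counts in all 9. In a bulk library, fewer cells that express a gene and less of its RNA per cell cannot be told apart.

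Mitochondria take up calcium from the cytosol through a pore built from MCU subunits, and the small protein EMRE, encoded by Smdt1, is required for the pore to conduct in animals. MICU2 and MICU3 are gatekeepers at the mouth of the pore, where their EF hands sense cytosolic calcium. MCUB resembles MCU and lowers the current of pores that contain it. MCUR1 is an inner membrane protein that promotes uptake. Calcium leaves the matrix through the sodium-calcium exchanger encoded by Slc8b1, and LETM1 is a cation-proton exchanger of the same membrane. Matrix calcium stimulates dehydrogenases of the citric acid cycle, and excess calcium opens the permeability transition pore.

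The genes are spread over the genome of build GRCm38. Micu2 is on chromosome 14 from 57916261 to 57999262 and Zdhhc20 on the same chromosome from 57832703 to 57890276, both on the minus strand. A gap of 25984 bases that holds 0 annotated genes separates them, and their annotated 5′ ends are 108986 bases apart. Mcu is on chromosome 10 (59446984 to 59616692, minus strand). Smdt1 is on chromosome 15 (82338959 to 82349091), Mcub on chromosome 3 (129914960 to 129970206), Micu3 on chromosome 8 (40307458 to 40386308) and Mcur1 on chromosome 13 (43538393 to 43560191). Letm1 (33739673 to 33782817) and Slc8b1 (120511168 to 120534024) are on chromosome 5.

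RefSeq promoter windows of GRCm38.p6, from 250 bases before to 50 after a start site, were matched for 6 of the 8 genes. Those of Micu2 and Zdhhc20 are shown because the genes are neighbours that were both low in the knockout clone, and those of Mcu and Smdt1 because both genes fell there. They are written 5′ to 3′ on the minus strand for the first 3 and on the plus strand for Smdt1, and capitals mark the GC box GGGCGG, the CCAAT box and the core site TGACG of the cAMP response element, read on both strands, where overlapping or touching matches run together. The RefSeq start of Smdt1 lies inside the longer span that GENCODE gives the gene. The Zdhhc20 window lies wholly upstream of the 5′ end that GENCODE gives that gene.
Micu2, chr14:57999213-57999512: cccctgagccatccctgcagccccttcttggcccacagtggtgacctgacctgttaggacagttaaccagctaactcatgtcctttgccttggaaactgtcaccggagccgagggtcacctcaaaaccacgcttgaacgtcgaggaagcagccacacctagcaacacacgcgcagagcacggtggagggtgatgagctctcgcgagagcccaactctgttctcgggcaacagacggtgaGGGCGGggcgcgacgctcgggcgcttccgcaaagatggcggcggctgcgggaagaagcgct
Zdhhc20, chr14:57890287-57890586: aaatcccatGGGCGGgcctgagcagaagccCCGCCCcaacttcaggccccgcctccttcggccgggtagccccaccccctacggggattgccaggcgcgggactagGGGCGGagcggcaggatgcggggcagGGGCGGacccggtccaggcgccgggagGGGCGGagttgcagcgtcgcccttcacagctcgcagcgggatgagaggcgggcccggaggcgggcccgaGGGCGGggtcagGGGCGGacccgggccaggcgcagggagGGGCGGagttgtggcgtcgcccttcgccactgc
Mcu, chr10:59616643-59616942: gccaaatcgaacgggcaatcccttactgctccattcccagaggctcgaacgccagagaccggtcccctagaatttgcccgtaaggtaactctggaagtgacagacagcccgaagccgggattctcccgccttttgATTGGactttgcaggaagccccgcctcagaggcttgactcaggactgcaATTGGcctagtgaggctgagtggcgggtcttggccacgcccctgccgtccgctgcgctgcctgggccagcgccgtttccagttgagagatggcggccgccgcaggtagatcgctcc
Smdt1, chr15:82345796-82346095: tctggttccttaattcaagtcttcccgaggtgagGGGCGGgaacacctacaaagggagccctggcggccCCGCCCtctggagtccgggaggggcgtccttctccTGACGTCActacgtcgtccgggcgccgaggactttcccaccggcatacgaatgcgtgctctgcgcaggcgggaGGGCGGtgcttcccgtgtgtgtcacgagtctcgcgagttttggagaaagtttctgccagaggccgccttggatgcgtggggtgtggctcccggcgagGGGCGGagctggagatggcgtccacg
The Micu2 window held 1 GC box and that of Zdhhc20 held 8, while a GC box is in 35.7% of the 32851 windows of the table. The Mcu window held 2 CCAAT boxes and 0 GC boxes, and CCAAT is in 37.4% of all windows. The Smdt1 window held 4 GC boxes and 2 overlapping core sites of the cAMP response element, which 20.8% of windows hold. The E-box CACGTG, in 7.15% of windows, was in none of these 4. These matches describe letters only, and none of the motifs was in all 4 windows.

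Micu2, a calcium-sensing gatekeeper of the channel, measured 26.3, 27.4 and 25.6 CPM in knockout clone E4, 62.7, 42.2 and 54.9 in control clone C5 and 46.7, 47.1 and 56.4 in the parental line. The knockout libraries lay close together and below all 6 others. In control replicate 2 the gene was lower than in the other libraries of its group, as was Zdhhc20, at 85.8 CPM against 123 and 120. The knockout level was 49.5% of the control level and 52.8% of the parental level. Between C5 and the parental line, which the choice of genes did not use, Micu2 differed by 0.09 on the log2 scale (95% interval from -0.22 to 0.40, adjusted p = 0.678 by edgeR), and the libraries overlapped.

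Zdhhc20, which encodes the palmitoyltransferase that was targeted, stood at 34.6% of the control level and 46.1% of the parental level in the knockout clone, so the level of Micu2 was reduced less than that of its neighbour. Within a library, Micu2 CPM was 70.1%, 80.8% and 60.2% of Zdhhc20 CPM in the knockout clone, 51%, 49.2% and 45.7% in the control clone, and 62%, 58% and 62.2% in the parental cells. These shares were higher in every knockout library than in every control library, but overlapped those of the parental cells. On the log2 scale the ratio differed by -0.32 between C5 and the parental line, without overlap (exact permutation p = 0.1, adjusted p = 0.15).

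**Figure D1:**
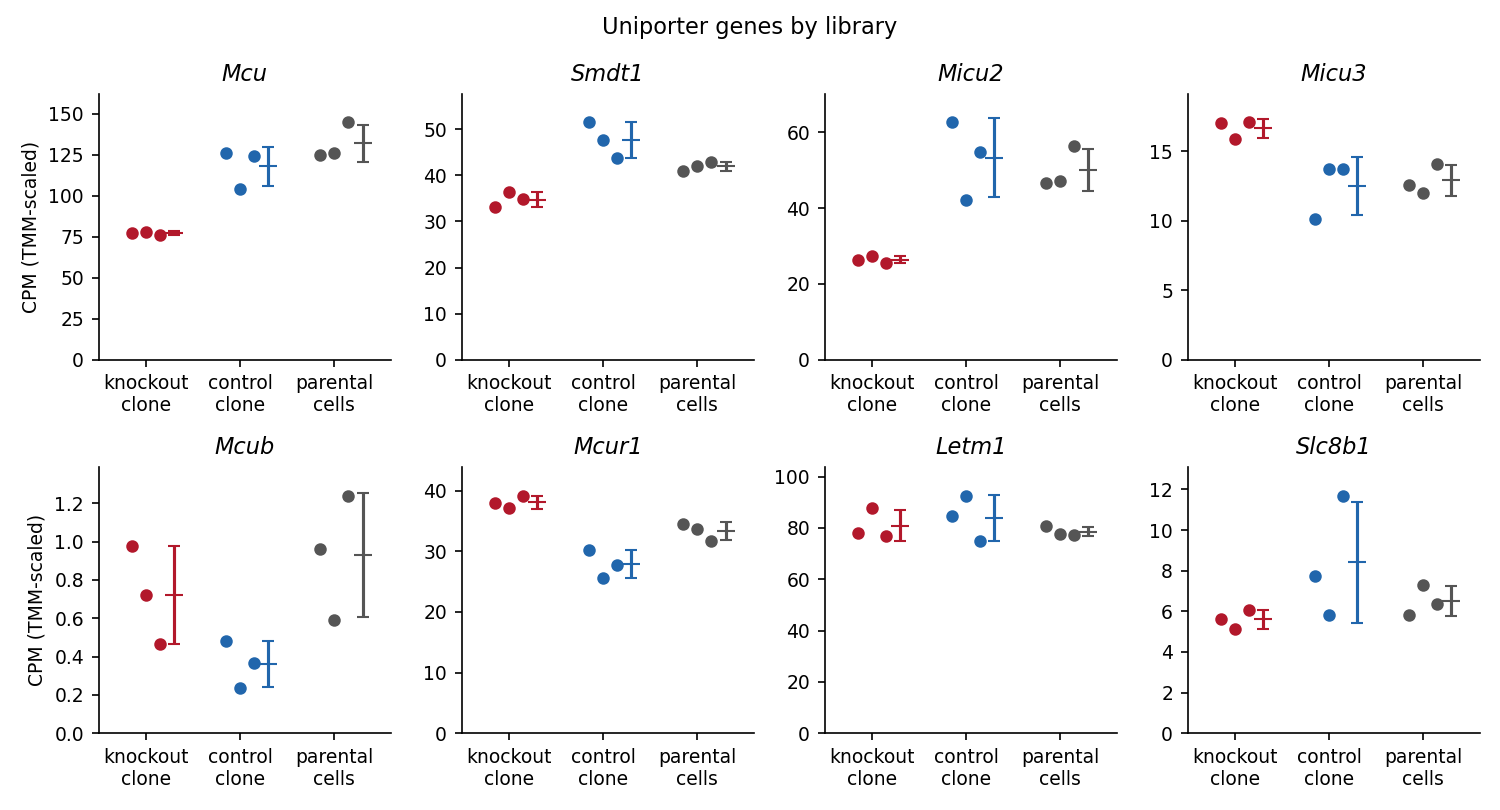
CPM after TMM scaling (y axis, from 0) of the 8 uniporter genes in each library of the knockout clone, the control clone and the parental cells. Points are libraries and the dash with bars is the mean ± SD of 3; Mcu, Smdt1 and Micu2 were lowest in the 3 knockout libraries, Micu3 and Mcur1 highest, and the groups overlapped for Letm1.

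Of the pore genes, Mcu and Smdt1 fell in E4 against C5 and against the parental line, whereas Mcub was near the limit of detection. Mcu, the pore-forming subunit, measured 77.5, 78.2 and 76.3 CPM in knockout clone E4, 126, 104 and 124 in control clone C5 and 125, 126 and 145 in the parental line. All 3 knockout libraries were below the 6 others. Against C5 Mcu fell by 0.61 on the log2 scale (SE 0.09, adjusted p = 0.000778), and against the parental line by 0.77 (SE 0.09, adjusted p = 0.000368). C5 differed from the parental line by -0.16 (SE 0.09, adjusted p = 0.246). Both calls held under all 17 alternatives of scaling, filter, test and left-out library, with values from -0.69 to -0.56 and from -0.81 to -0.70.

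Smdt1, which encodes EMRE, measured 33.1, 36.4 and 34.8 CPM in knockout clone E4, 51.6, 47.6 and 43.8 in control clone C5 and 41, 42 and 42.9 in the parental line. The knockout libraries were again the 3 lowest. Smdt1 fell by 0.46 on the log2 scale against C5 (SE 0.08, adjusted p = 0.00208) and by 0.27 against the parental line (SE 0.08, adjusted p = 0.0342). The second call was lost with no filter on low counts (adjusted p = 0.131), with the replicate block (adjusted p = 0.0613) and with any 1 knockout or parental library left out, the last at adjusted p values from 0.0614 without knockout replicate 2 to 0.135 without knockout replicate 1. Smdt1 shares its strand and part of its span with Pheta2, whose 128 counts over the 9 libraries stand beside 7037 for Smdt1.

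Mcub, the less conductive relative of Mcu, held 20, 13 and 8 counts in the knockout libraries, 11, 4 and 7 in the control libraries and 20, 10 and 21 in the parental libraries. The summed counts were 41 (exact 95% Poisson interval from 29.4 to 55.6), 22 (13.8 to 33.3) and 51 (38 to 67.1), intervals that cover counting error only. After scaling, Mcub was at 0.977, 0.723 and 0.467 CPM in E4, 0.48, 0.238 and 0.367 CPM in C5 and 0.963, 0.589 and 1.24 CPM in the parental line. In CPM, though not in counts, the control libraries were all below the parental ones, and the knockout libraries overlapped both groups. Between E4 and the parental line Mcub differed by -0.35 on the log2 scale (SE 0.40, 95% interval from -1.25 to 0.55, adjusted p = 0.545), and by -0.64 to -0.11 with 1 library left out. Mcub passed the filter through the parental group, where it was highest on average, so this test carries that choice. The values in C5, the group through which Mcub did not pass the filter, are given as a description: E4 was 0.97 above C5 on the log2 scale, and the difference of C5 from the parental line was -1.32.

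Micu3 and Mcur1 rose in E4 against C5, and neither was called against the parental line. Micu3, a relative of Micu2 known mainly from brain and muscle, measured 17, 15.9 and 17.1 CPM in knockout clone E4, 10.1, 13.7 and 13.7 in control clone C5 and 12.6, 12 and 14.1 in the parental line. Every knockout library was above every other library. Micu3 rose by 0.42 on the log2 scale against C5 (SE 0.14, adjusted p = 0.0321), while the difference of 0.37 from the parental line (SE 0.14, adjusted p = 0.0649) was not called. The first call was lost without knockout replicates 1 or 3 or control replicate 1 (adjusted p = 0.0773, 0.0859 and 0.0867, the last at 0.28), and in the fit of only these groups (0.0544). The second difference passed with DESeq2 (0.0489), without control replicates 1, 2 or 3 (0.0274, 0.0371 and 0.0393) and in the fit of only its own groups (0.0065).

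Mcur1, the inner membrane protein that promotes uptake, measured 38, 37.1 and 39.2 CPM in knockout clone E4, 30.2, 25.6 and 27.8 in control clone C5 and 34.5, 33.7 and 31.7 in the parental line. The 3 groups did not overlap, with the knockout clone highest and the control clone lowest. Mcur1 rose by 0.45 on the log2 scale against C5 (SE 0.09, adjusted p = 0.00265), a call kept under all 17 alternatives. The difference of 0.19 from the parental cells was not called (SE 0.09, adjusted p = 0.115) and passed only in the fit of those groups (0.0227). Chromosome 13, which carries Mcur1, had a median log2 fold change of 0.33 over its 542 tested genes against C5, 0.12 against the parental line and -0.20 between C5 and the parental line. The part of the chromosome in the Mcur1 difference was not tested.

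The exchangers showed no called change. Letm1 measured 78, 87.7 and 76.7 CPM in knockout clone E4, 84.5, 92.6 and 74.8 in control clone C5 and 80.7, 77.6 and 77.4 in the parental line, and all 3 groups overlapped. Its log2 fold change was -0.05 against C5 (95% interval from -0.26 to 0.15) and 0.04 against the parental line (-0.17 to 0.25). Neither interval reaches the change of Mcu. Slc8b1, the matrix sodium-calcium exchanger, measured 5.62, 5.12 and 6.07 CPM in knockout clone E4, 7.73, 5.83 and 11.7 in control clone C5 and 5.83, 7.31 and 6.35 in the parental line. The control libraries were widely spread and overlapped both other groups. Against C5 Slc8b1 differed by -0.59 on the log2 scale (SE 0.23, adjusted p = 0.0686), which passed only without control replicate 2 (-0.78, adjusted p = 0.00678) and was -0.28 without control replicate 3 (adjusted p = 0.214). It differed from the parental line by -0.21 (SE 0.24, adjusted p = 0.531).

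Counted together, without Micu2 in the knockout comparisons and without Mcub in those with C5, 4 of 6 genes were called against C5, 2 higher and 2 lower, where 42.9% of all 13153 tested genes were called, 18.7% higher and 24.2% lower. Against the parental line 2 of 7 were called, both lower, where 31.4% of all genes were called, 13.1% higher and 18.3% lower. The first count is above and the second near the share over all genes, over only 6 and 7 genes. The 7 include Mcub, which was not called. The median log2 fold changes of these genes, -0.26 and -0.21, stand beside -0.02 and -0.01 over all tested genes. Between C5 and the parental line edgeR called 0 of the 7 genes other than Mcub, Micu2 included, where 21.4% of all genes were called, 10.4% higher and 11% lower. Of these 7, 1 had an unadjusted p under 0.05 there, DESeq2 called 1 and limma voom called 0, beside 3354 and 2774 of all genes. The call in DESeq2 was Mcur1, lower in C5 by 0.26 (adjusted p = 0.0414), against 0.0625 in edgeR, and Mcur1 also passed with total counts (adjusted p = 0.037) and without control replicate 1 (adjusted p = 0.0453). Smdt1, higher in C5 by 0.18 (adjusted p = 0.147), passed without control replicate 3 (0.24, adjusted p = 0.0353), and Slc8b1, higher by 0.37 (adjusted p = 0.281), passed without control replicate 2 (0.57, adjusted p = 0.0472) but was 0.07 without control replicate 3 (adjusted p = 0.78).

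By the libraries alone, 4 of the 6 (2 lower, 2 higher) did not overlap between E4 and C5, as was true of 51.6% of all genes, 27.6% lower and 24% higher. The same 4 genes, of the 7 counted there, did not overlap between E4 and the parental line. Of all genes 61.5% did not, 31.7% lower and 29.8% higher. For C5 and the parental line, 2 of the same 7 genes did not overlap, Mcur1 lower and Smdt1 higher, beside 37.3% of all genes, 19.2% lower and 18.2% higher. The 2 knockout comparisons use the same 3 knockout libraries and are therefore not independent of each other.

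**Figure D2:**
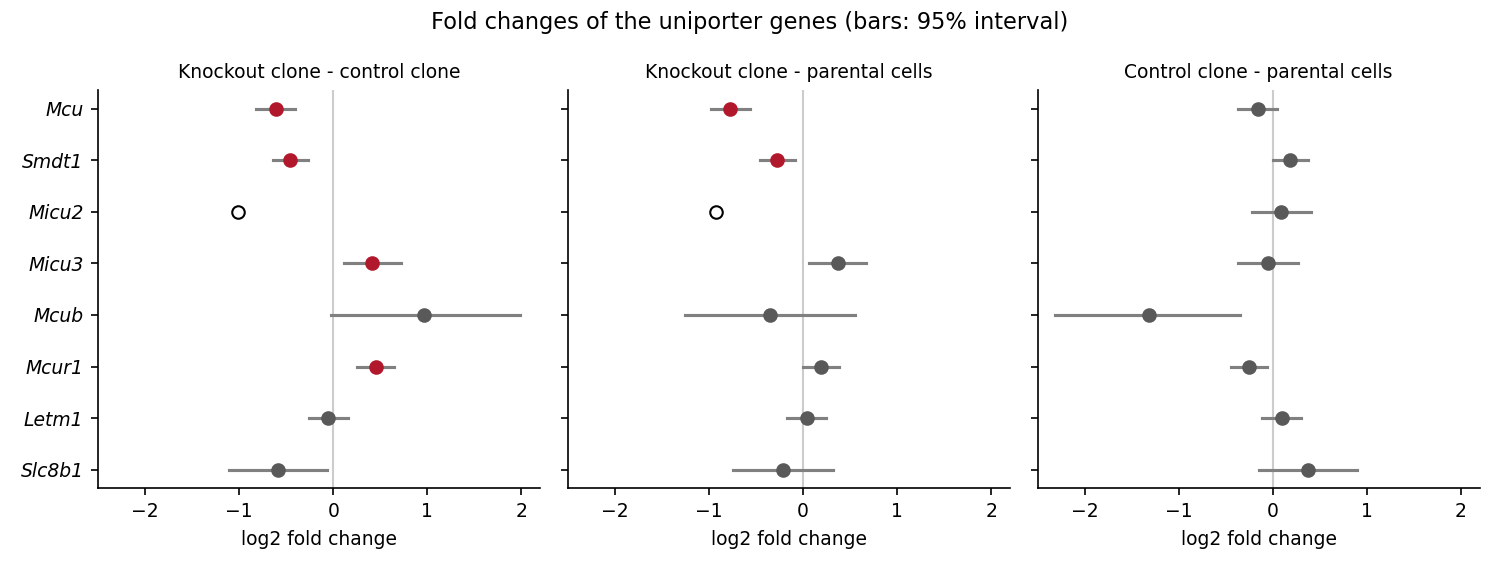
Log2 fold changes (x axis) of the 8 genes in the 3 comparisons, first group minus second. Bars are 95% intervals of the edgeR fit, not adjusted over genes, red points had an adjusted p under 0.05, and the open circles are Micu2 in the knockout comparisons, given without a test; red points are Mcu and Smdt1 on the left in both, and Micu3 and Mcur1 on the right against C5.

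Per kilobase of annotated exon, Smdt1 had the highest level of the 8 genes and Mcub the lowest in all 3 groups. Smdt1 stood at 23.5 ± 1.13 CPM per kilobase in the knockout clone, 32.2 ± 2.66 in the control clone and 28.4 ± 0.643 in the parental cells (SD, n = 3). Mcu was at 11.1 ± 0.14, 17 ± 1.7 and 19 ± 1.61 and Micu2 at 8.56 ± 0.294, 17.3 ± 3.36 and 16.2 ± 1.77 in the same order of groups, with Mcu next after Smdt1 in the knockout clone and the parental cells and Micu2 in the control clone. In the control clone and in the parental cells the ranges of mean ± SD of Mcu and Micu2 overlapped, and in the knockout clone they did not. Letm1 was between 8.14 and 8.7 CPM per kilobase in the 3 groups, so that in the knockout clone Micu2 was at its level, whereas in the others Micu2 was above Letm1. Mcur1 came next at 5.38, 3.94 and 4.71, ahead of Micu3 and Slc8b1, both under 2.8. The exon length counts every annotated transcript, so genes with long unused exons appear lower than they are.

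The genes were also set against each other within each library, as log2 ratios with a prior count of 2. The log2 ratio of Micu2 to Mcu was -1.56, -1.51 and -1.57 in E4, -1.003, -1.31 and -1.17 in C5 and -1.42, -1.42 and -1.36 in the parental line. The knockout clone thus had the least Micu2 RNA for its Mcu RNA of the 9 libraries, by 0.39 on the log2 scale against C5 and 0.15 against the parental line, given as a description. The control clone exceeded the parental cells by 0.24 (exact two-sided permutation p = 0.1, the smallest that 3 against 3 libraries can give, adjusted p = 0.15 over the 6 ratio tests given here).

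The log2 ratio of Smdt1 to Mcu was -1.23, -1.10 and -1.13 in E4, -1.28, -1.13 and -1.50 in C5 and -1.61, -1.58 and -1.75 in the parental line. Every clone library, edited or not, was above every parental library. The differences were 0.49 for the knockout clone and 0.34 for the control clone against the parental line (exact permutation p = 0.1, adjusted p = 0.15 for each), and 0.15 between the clones (exact permutation p = 0.2, adjusted p = 0.24). The difference between the clones was 0.055 without control replicate 3 and 0.238 without control replicate 2.

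Mcub CPM was 1.26%, 0.925% and 0.613% of Mcu CPM in the knockout libraries, 0.382%, 0.228% and 0.297% in the control libraries and 0.771%, 0.468% and 0.853% in the parental libraries. On the log2 scale the knockout clone was 1.41 above the control clone, whose libraries it did not overlap, and 0.45 above the parental cells, whose libraries it did overlap (exact permutation p = 0.3, adjusted p = 0.3). The control clone differed from the parental cells by -0.97 without overlap, given as a description for the same reason as above. With 4 to 21 Mcub counts per library, these ratios carry the counting error and the choice by the filter given above. Unlike the percentages, the log2 values include the prior count.

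**Figure D3:**
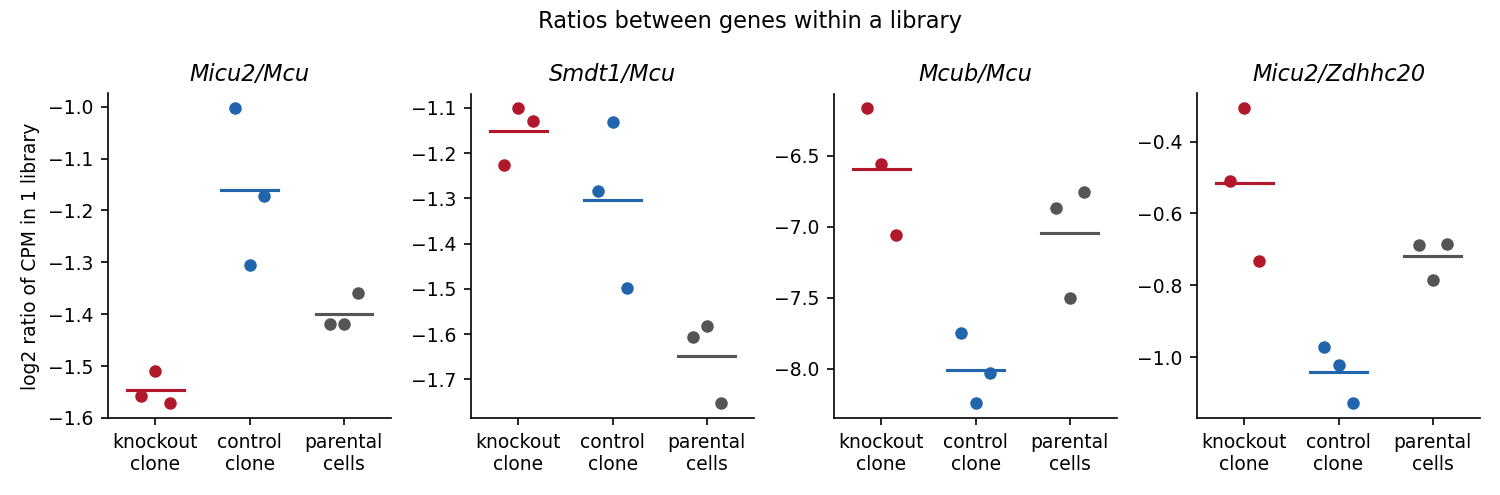
Log2 ratio of the CPM of 2 genes in the same library (y axis, with a range of its own in each panel) for the knockout clone, the control clone and the parental cells. Points are libraries and lines are means of 3; Micu2 relative to Mcu was lowest in the knockout clone, and Smdt1 relative to Mcu was lowest in the parental cells.

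Other genes of mitochondrial calcium handling changed in both directions. Of 44 such genes, all tested, 15 were called against C5 (6 higher, 9 lower) and 16 against the parental line (6 higher, 10 lower). All genes gave 42.9% and 31.4%. The list medians were -0.02 and -0.11, and 7 genes were called between C5 and the parental line (4 higher, 3 lower), where 21.4% of all genes were called. Called against both C5 and the parental line, 2 of the 44 genes were higher and 4 lower, while 8.19% of all tested genes were higher and 13.4% lower in this way. Of the 5 regulators of the channel and of EMRE turnover on the list, 1 was called against C5 and 2 against the parental line, each lower.

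Of the 13 genes of the outer membrane and of contacts with the endoplasmic reticulum, 7 were called against C5 (4 higher, 3 lower) and 6 against the parental line (3 higher, 3 lower). Of all tested genes 42.9% were called against C5 (18.7% higher, 24.2% lower) and 31.4% against the parental line (13.1% higher, 18.3% lower). Itpr3, an inositol trisphosphate receptor that releases calcium from the endoplasmic reticulum, rose from 330.2 ± 13.2 CPM in C5 and 325.4 ± 20.3 in the parental line to 475 ± 13 in E4 (SD, n = 3). The rise was 0.53 (SE 0.07, adjusted p = 0.000406) and 0.55 (SE 0.07, adjusted p = 0.000529) on the log2 scale. Vapb, a tether of the endoplasmic reticulum, was lower by smaller amounts, with log2 fold changes of -0.28 (adjusted p = 0.00724) and -0.22 (adjusted p = 0.0266). The second Vapb call was lost with no filter, with the replicate block and with any 1 knockout or parental library left out, at adjusted p values from 0.0546 (replicate block) to 0.152 (no filter).

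Of the 9 genes of calcium stores and entry, 2 were called against C5 and 1 against the parental line, all lower. Of all tested genes 42.9% and 31.4% were called, 24.2% and 18.3% lower. Atp2a3, a calcium pump of the endoplasmic reticulum, measured 1.66, 1.5 and 1.28 CPM in knockout clone E4, 22.7, 13 and 39.4 in control clone C5 and 16.5, 18.4 and 27.5 in the parental line. On the log2 scale Atp2a3 differed by -4.07 from C5 (SE 0.43, adjusted p = 0.000108) and by -3.80 from the parental line (SE 0.43, adjusted p = 0.000251), with no overlap of libraries. Atp2a2, the pump of the same family with the higher count here, was at 591 to 627 CPM in the knockout libraries and 578 to 772 CPM in the others, with log2 fold changes of -0.11 (adjusted p = 0.368) and 0.05 (adjusted p = 0.722).

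Ppif, which encodes cyclophilin D of the permeability transition pore, measured 21.3, 22.5 and 20.3 CPM in knockout clone E4, 12, 16.1 and 11.6 in control clone C5 and 11.9, 10.8 and 9.3 in the parental line. Each knockout library was above the 6 others, and Ppif was the gene called among the 3 of the permeability pore and other exchangers. Ppif rose by 0.69 on the log2 scale against C5 (SE 0.15, adjusted p = 0.0045) and to 199.9% of the parental level (adjusted p = 0.00107). It is on chromosome 14, whose tested genes had median log2 fold changes of 0.19 and 0.21. The part of the chromosome in the Ppif difference was not tested. Of the 14 genes grouped as enzymes and carriers, 4 were called against C5 (1 higher, 3 lower) and 6 against the parental line (2 higher, 4 lower). Of all tested genes 42.9% and 31.4% were called. The group was set by name, and whether calcium acts on each product was not checked. Both calcium-regulated aspartate-glutamate carriers fell, Slc25a12 by 0.52 (adjusted p = 0.000577) and 0.40 (adjusted p = 0.00376), and Slc25a13 by 0.97 (adjusted p = 0.000317) and 0.41 (adjusted p = 0.0322). Slc25a13 was also higher in C5 than in the parental line, by 0.55 (adjusted p = 0.0132), a call lost without parental replicate 2 (0.48, adjusted p = 0.0673). Its fall against the parental line was lost without knockout replicates 1, 2 or 3 or parental replicates 1 or 3 (adjusted p from 0.0718 to 0.114).

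**Figure D4:**
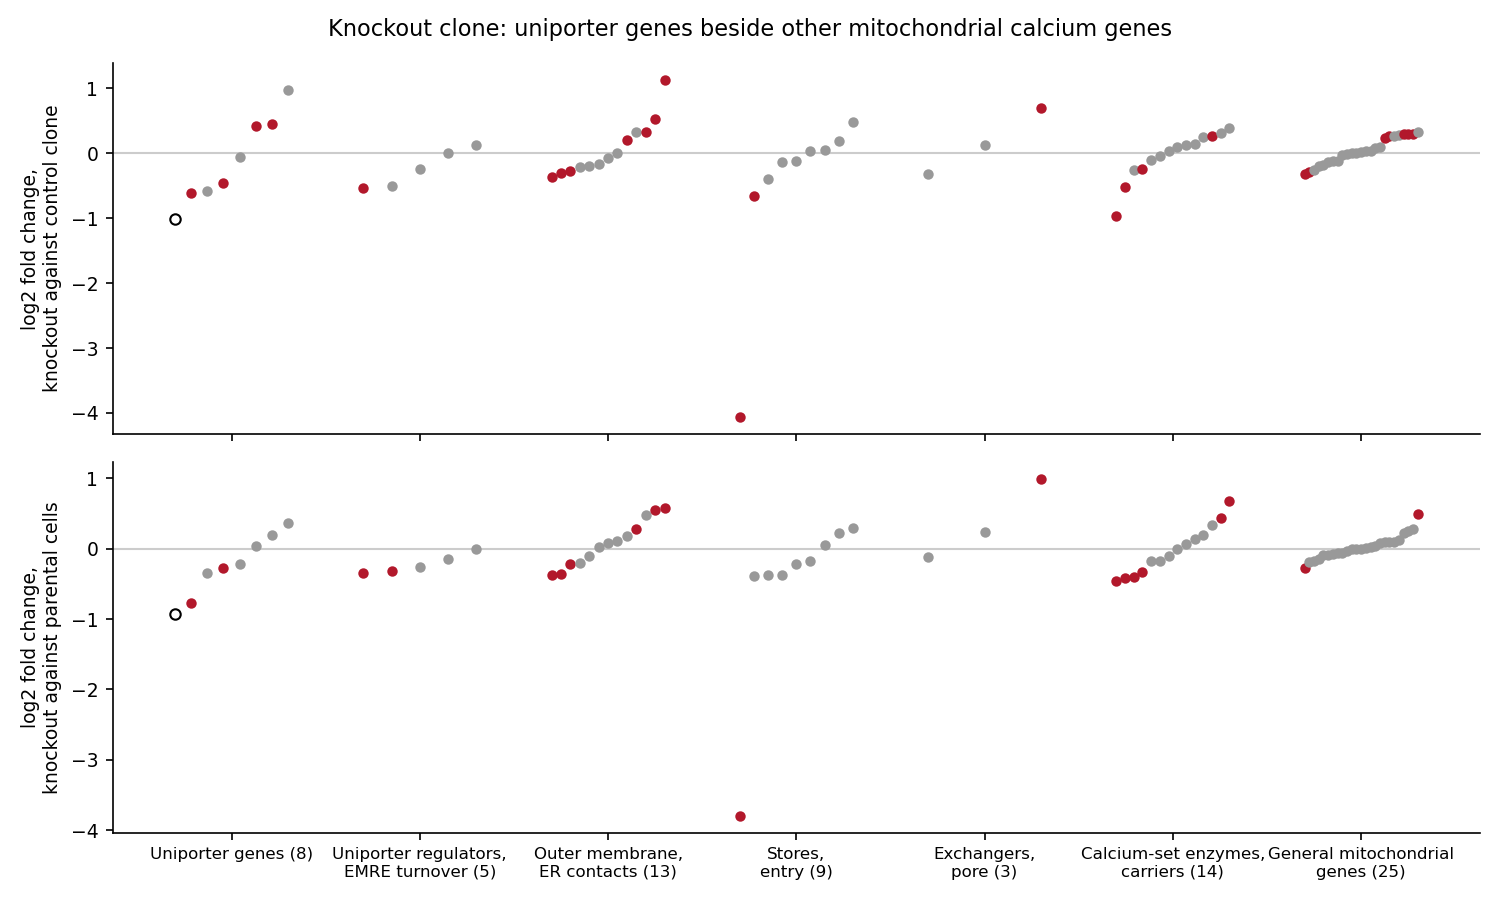
Log2 fold changes of the knockout clone (y axis) against C5 (top) and the parental cells (bottom) for the 8 uniporter genes, 5 groups of other calcium genes and 25 general mitochondrial genes, each sorted by value, with group sizes in brackets. Red points had an adjusted p under 0.05 in edgeR and the open circle is Micu2, given without a test; the lowest point is Atp2a3, and the general mitochondrial genes lie between -0.31 and 0.49.

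General mitochondrial genes were measured beside these. Of 25 genes for import, chaperones, cristae and respiratory enzymes, 7 were called against C5 (5 higher, 2 lower) and 2 against the parental line (1 higher, 1 lower), and 0 were called in the same direction in both. Of all tested genes 42.9% and 31.4% were called in these comparisons, and 8.19% were higher and 13.4% lower in both. The list had median log2 fold changes of 0.01 and 0.00, beside -0.02 and -0.01 over all tested genes. The counts of called genes reached 12 without control replicate 2 and 11 without control replicate 3 in the first comparison, and ranged from 0 to 6 over the libraries left out in the second. The 37 genes of the mitochondrial genome held 2.2%, 2.12% and 1.58% of the counts in the knockout libraries, 4.11%, 3.82% and 3.45% in the control libraries and 1.62%, 1.33% and 1.2% in the parental libraries. The share was highest in the 3 control libraries, and its part in the results on the uniporter genes was not tested.

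The genes around the members were measured in the same way. The 616 tested genes of chromosome 10 had a median log2 fold change of 0.05 against C5 and -0.06 against the parental line, and the 20 tested genes around Mcu had medians of -0.03 and -0.03. For chromosome 15 and Smdt1 the chromosome medians were -0.02 and 0.09 and those of the neighbours 0.02 and 0.13. Against C5, 5 of the 20 genes around Mcu were called higher and 4 lower, and 4 around Smdt1 higher and 7 lower. The parental line gave 1 higher and 5 lower around Mcu, and 2 higher and 3 lower around Smdt1. Over all tested genes, 18.7% were called higher and 24.2% lower against C5, and 13.1% higher and 18.3% lower against the parental line. The part of the region in the differences of Mcu and Smdt1 was not tested. Chromosome 14 had medians of 0.19 and 0.21, and the 20 tested genes around Micu2, which include Zdhhc20, had medians of 0.03 and 0.18, with 5 called higher and 5 lower against C5 and 5 higher and 3 lower against the parental line. For Micu3 the medians of chromosome 8 were -0.04 and -0.01, while for Mcur1 the 20 neighbours had medians of 0.37 and 0.19, near its own 0.45 and 0.19. Around Mcur1, 9 were called higher and 2 lower against C5, and 4 higher and 2 lower against the parental line.

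Genes with a profile like that of Micu2 were ranked by the root mean square difference of log2 CPM, centred on each gene's mean, over the 9 libraries. Of the 10019 genes that averaged 5 CPM or more, the nearest were Krt8 (0.0525), Marveld1 (0.0704), Chmp2b (0.0737), Scamp2 (0.0838) and B4galt6 (0.0904). The ranking uses the low values of Micu2 in E4 that chose the group, so it is a description. Krt8, a keratin of simple epithelia, measured 1270, 1390 and 1310 CPM in knockout clone E4, 3060, 2250 and 2950 in control clone C5 and 2300, 2350 and 2920 in the parental line. Like Micu2, Krt8 was low in control replicate 2 and high in parental replicate 3 relative to its group. Krt8 is 1 of the 7 epithelial markers whose sum was lowest in E4, but the 7 did not move together. Krt8, Krt18, Krt19 and Cdh1 were called lower in E4 against both other groups. Krt7 was at 50% of its C5 level (adjusted p = 0.000198) and 106.7% of its parental level (adjusted p = 0.578), and Sox9 was called in neither comparison. Epcam, under 1 CPM in all 9 libraries, was at 0.584 to 0.635 CPM in E4 and 0.118 to 0.241 CPM in the others. The part of these markers in the lower Micu2, Mcu and Smdt1 was not tested. Mcu ranked at place 138 (0.176) and Zdhhc20, the neighbour of Micu2, at 430 (0.243). Smdt1 followed at place 1009, and Mcur1 and Micu3 were far down, at 7264 and 8137.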

How the data were processed

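The authors deposited estimated counts per gene from RSEM, as whole numbers in 1 column per library. RSEM 1.3.0, STAR 2.5.2, DESeq2 1.10.1 and build GRCm38 are named in the submitters' processing notes, without role or order; which annotation release and strand setting were used is not given in the sources used here. The KAPA mRNA HyperPrep kit made the libraries, per the labels' protocols.

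Symbols and coordinates are from GENCODE M21, which matched 54809 of 54838 identifiers. The test was the quasi-likelihood F test of edgeR 4.0.16 in R 4.3.3, after filterByExpr (minimum count 10, minimum total 15) and TMM scaling, with all 9 libraries in 1 fit and Benjamini-Hochberg adjustment over all 13153 genes tested. A gene was called at an adjusted p under 0.05. CPM are TMM-scaled, and ratios use log2 CPM with a prior count of 2; of 8 planned ratio tests, 2 of Mcub in C5 are given as values only. P-values measure the spread between libraries of 1 clone or line. The members, lists and tests were chosen with earlier results of these data known. The named genes are the members, Zdhhc20, list genes called in the same direction in both knockout comparisons (up to 5 per direction) and the 5 genes most like Micu2; Atp2a2 was added after its values were seen. No libraries were duplicates, since the lowest chi-square per gene between a pair was 5. The edgeR step was tested on simulated counts. Alternatives were DESeq2 size factors or total counts, no filter or a mean of 5 CPM, DESeq2 1.42.0, limma 3.58.1 voom, the replicate block, fits of 2 groups alone, leaving out each library, and for ratios a prior count of 0.5. A gene first placed on the calcium list is not reported here. The raw reads and the edit itself were not analysed here.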

Additional observations from a re-analysis of the deposited data

How the results depend on the processing

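The calls of Mcu in both knockout comparisons, and of Smdt1 and Mcur1 against C5, were the same under all 17 alternatives. Nothing in the labels says that replicate numbers pair the libraries. Correlations of same-numbered deviations ranged from -0.223 to 0.344, and without other pairs as a reference they do not decide it. With the replicate block, 1 of 7 genes was called against the parental line (Mcu, while Smdt1 had an adjusted p of 0.0613), as was 1 of 25 general mitochondrial genes. That fit called 3941 genes in all there.

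Against the parental line the main fit called 4131 genes. The fit of only the groups compared called 6840 genes in all, with 4 of 7, 29 of the 44 calcium genes and 9 of the 25 general genes. No filter gave 4006 genes in all, 1 of 7 and 1 of 25, and DESeq2 gave 4557 in all and 4 of 25. Between C5 and the parental line the main fit called 2814 genes. Total counts (2894 in all) and DESeq2 (3354 in all) each called 1 of 7 (Mcur1) and 11 of 44, and DESeq2 called 8 of 25. The fit of only those groups called 3 of 44, 2 of 25 and 1525 in all. Total counts moved the lower share of calls there from 51.3% to 61.2%.

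With each library left out, calls against C5 ranged from 4301 to 7204 over all genes, 3 to 5 of 6, 11 to 22 of 44 and 5 to 12 of 25. Against the parental line they ranged from 2515 to 5693, 1 to 3 of 7, 8 to 22 of 44 and 0 to 6 of 25. Between C5 and the parental line they ranged from 1472 to 4102, 0 to 1 of 7, 2 to 12 of 44 and 2 to 12 of 25.

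Differences near 0 changed sign with 1 library left out, none of them called. For Letm1 they ranged from -0.13 to 0.025 against C5 and from -0.021 to 0.079 against the parental line. Between C5 and the parental line the ranges were -0.044 to 0.232 for Micu2, -0.123 to 0.085 for Micu3, -0.209 to 0.572 for Atp2a3 and -0.036 to 0.057 for Itpr3, which was -0.027 with total counts. All ratio differences kept their direction. Mcub had the fewest counts of the 8 members, from 4 to 21 per library.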
